A study of Mus musculus with 6 samples.

Results

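Type I interferon response genes are the antiviral genes that a cell switches on when interferon alpha or beta reaches it. A set of 33 among 55536 genes was followed here, picked by symbol and not by a threshold on these values: transcription factors, nucleic acid sensors, antiviral effectors and Schlafen genes, without the GBP and IRG GTPases. All 33 were found in the deposited count table by their symbol. Of these, 32 passed the filter on low counts and were tested among 15519 genes; the other, Ifi44, had too few reads.

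RNA was sequenced from 500 sorted CD4+ T cells per library, with 3 libraries of 2D2-HDAC1-cKO cells and 3 of 2D2-WT cells, on the C57BL/6 background. The HDAC1-cKO donors (2D2-Hdac1fl/fl-Cd4-Cre+) carry floxed alleles of the histone deacetylase gene Hdac1 and Cre recombinase under the Cd4 promoter, which acts from the double-positive thymocyte stage and so also in the CD8 lineage. The WT donors (2D2-Hdac1fl/fl-Cd4-Cre-) carry the same floxed alleles without Cre, and both carry 2D2, a transgenic T cell receptor for a myelin oligodendrocyte glycoprotein peptide. Naive CD45.2+ donor cells went into CD45.1+ recipients, which keep their own lymphocytes, and the footpad was immunised 18 hours later with MOG35-55 in complete Freund's adjuvant. Donor cells were sorted from draining popliteal nodes after 4 days, and each library pooled 2 mice. There was no interferon-treated, infected or unimmunised group, so the values describe the interferon signature in these activated cells and not their capacity to respond.

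Interferons alpha and beta bind a receptor made of IFNAR1 and IFNAR2. The kinases JAK1 and TYK2 then pass the signal to the factor ISGF3, of which IRF9 is the DNA-binding subunit. ISGF3 binds the interferon-stimulated response element (ISRE) in the promoters of its target genes. T cells show a low tonic signature of these genes without infection, and interferon gamma induces several of them as well. HDAC activity is known to be needed for full induction by ISGF3 in cell lines.

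Total counts ran from 19956153 to 36307610 in HDAC1-cKO and from 39036751 to 55900237 in WT libraries. Hdac1 fell to 17.2, 14.7 and 15.4 CPM (counts scaled to one library size) in HDAC1-cKO libraries, against 234.5, 236 and 244 CPM in WT libraries. The summed CPM of 9 T cell markers was 6439 to 7705 in HDAC1-cKO and 7558 to 8896 in WT; 2 of the 9 were called lower, Cd3e at 37.3% and Cd2 at 63.7% of WT (edgeR adjusted p = 0.0102 and 0.031). HDAC1-cKO replicate 2 stood apart: its deviations from the mean library correlated with GC content across 6293 genes at r = 0.62, against -0.316 to -0.0744 in the other libraries. Fold changes of the set are also given without this library where the ratio to WT moved by over 1.5 times or the call changed. Some smaller shifts are given too. In bulk RNA, fewer cells with a transcript and less transcript per cell cannot be told apart.

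Fold changes of the interferon response genes ran in both directions, with most groups overlapping. One gene, Samd9l, fell in HDAC1-cKO cells, and 0 rose (edgeR's quasi-likelihood test with Benjamini-Hochberg adjustment over all genes tested, threshold 0.05). The background was 0.979% of all tested genes called higher and 0.992% called lower, or 1.97% in either direction. Without adjustment, p was under 0.05 for 3 of the 32 in the higher and 6 in the lower direction, beside 8.62% and 8.39% of all tested genes. DESeq2 called 1 higher (Mx1) and 4 lower (Samd9l, Slfn1, Slfn2 and Irf9), with a background of 4.88% higher and 4.65% lower. The median log2 fold change of the 32 was -0.07, and that of all genes tested was -0.002; 14 were above 0 and 18 below. The 3 libraries of one genotype lay apart from the 3 of the other for 8 of 32 genes, 2 with HDAC1-cKO higher and 6 with HDAC1-cKO lower. Among all tested genes 12.7% were apart with HDAC1-cKO higher and 11.8% with HDAC1-cKO lower, 24.6% in all.

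**Figure D1:**
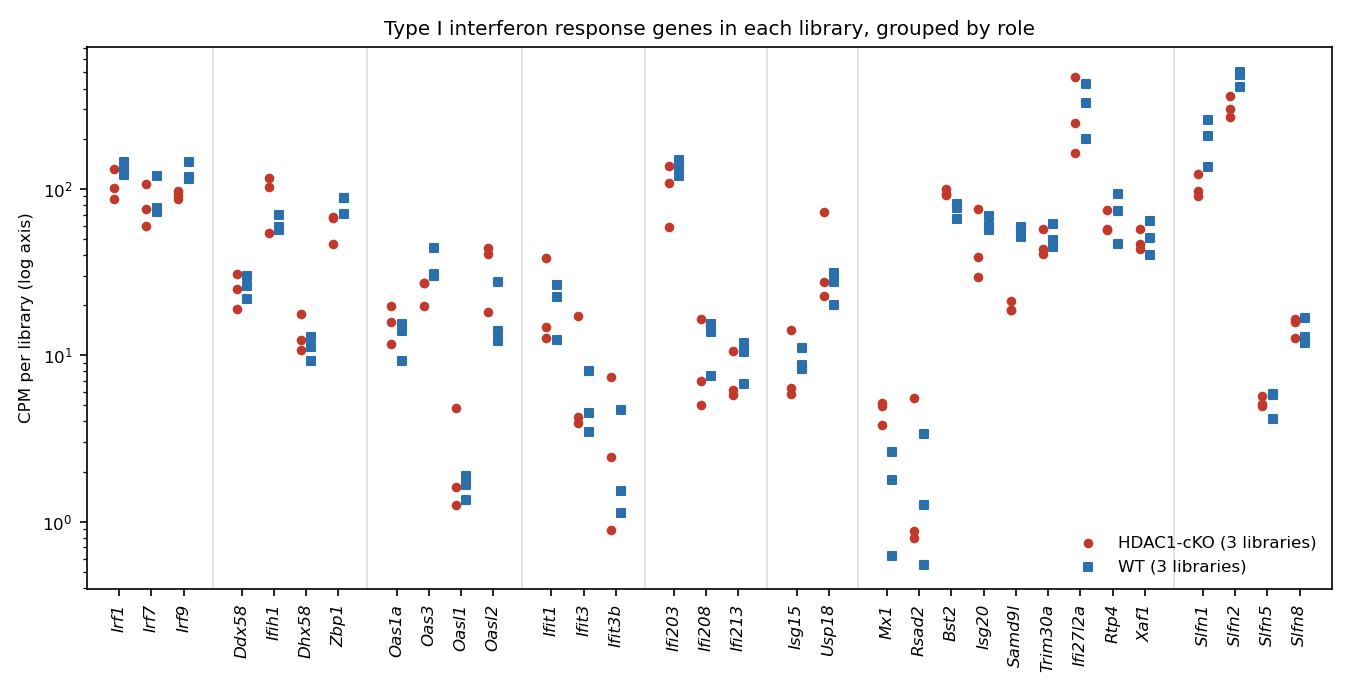
CPM of the 32 tested interferon response genes on a log axis, with 1 point per library, HDAC1-cKO as circles left and WT as squares right. For most genes the points of both genotypes overlap; for Samd9l the HDAC1-cKO libraries (18.7 to 21.3 CPM) lie below those of WT (51.2 to 59.4 CPM) by far more than either group spreads.

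**Figure D2:**
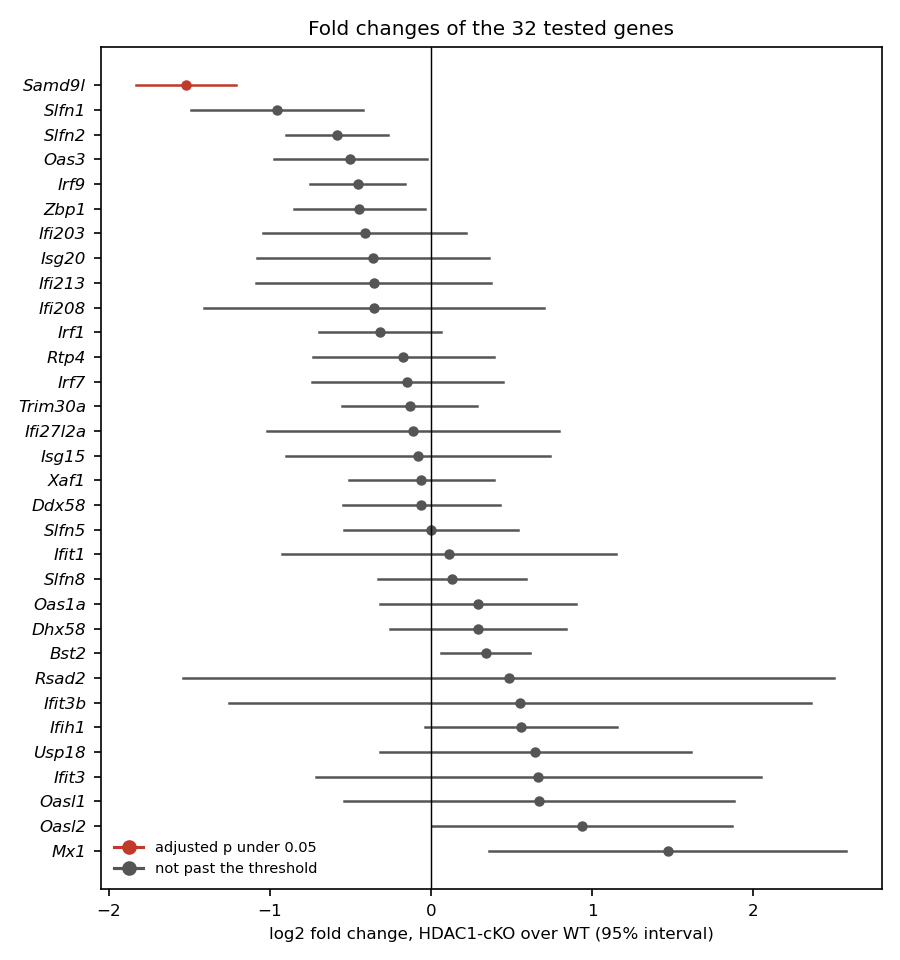
Log2 fold changes of HDAC1-cKO over WT with 95% intervals for the 32 tested genes, ordered from lowest to highest; red marks an adjusted p under 0.05. The interval of Samd9l runs from -1.83 to -1.21, and that of Rsad2 from -1.54 to 2.497.

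Samd9l encodes a cytoplasmic protein that restricts poxvirus translation and limits cytokine signalling in blood cells. Its gene (ENSMUSG00000047735) lies on chromosome 6, 3372257 to 3399572 on the minus strand (GRCm38). It had 18.7, 21.3 and 18.7 CPM in HDAC1-cKO libraries, against 59.4, 51.2 and 57.7 CPM in WT libraries. The libraries of each genotype lay close together and the groups were far apart. The log2 fold change was -1.52, with an SE of 0.13 and an adjusted p of 0.00391 from edgeR, so that HDAC1-cKO cells held 34.9% of the transcript of WT cells. As deposited FPKM, a unit scaled by transcript length, the level was 3.62 ± 0.268 in HDAC1-cKO and 10.4 ± 0.793 in WT (SD, n = 3). The call held in the 6 fits that left out 1 library, with edgeR adjusted p of at most 0.0396. Samd9l transcripts have a low GC content of 38.8%; with offsets that remove each library's GC trend the log2 fold change was -1.26 (edgeR adjusted p = 0.0308). Of its 50-base stretches 0.428% also occur in another gene, so few of its reads could belong to a copy.

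The Schlafen genes, which are named after a mouse T cell growth phenotype, split into a pair with lower values in every HDAC1-cKO library and a pair whose groups overlapped. Slfn1 can slow T cell growth when overexpressed in mice. It had 97.2, 123 and 90.2 CPM in HDAC1-cKO, against 136, 208 and 258 CPM in WT. These groups did not overlap, although WT replicate 1 lay nearer to the HDAC1-cKO libraries than to the other WT libraries. The log2 fold change was -0.96 ± 0.23 (SE, edgeR adjusted p = 0.0804). Slfn2, which keeps mouse T cells quiescent and guards them under oxidative stress, was the most abundant Schlafen gene per length, at 184 ± 26.6 FPKM in HDAC1-cKO and 277 ± 30.7 FPKM in WT (SD, n = 3). Its counts gave 300.5, 361 and 272 CPM in HDAC1-cKO, against 409.8, 481 and 506 CPM in WT. The groups did not overlap here either. The log2 fold change was -0.58 ± 0.14 (SE, edgeR adjusted p = 0.0754). Neither gene passed the threshold in the edgeR fit, while DESeq2 called both (adjusted p = 0.00151 for Slfn1 and 0.00437 for Slfn2). Leaving out HDAC1-cKO replicate 2 gave an edgeR adjusted p of 0.0243 for Slfn2 and 0.061 for Slfn1.

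Slfn5 and Slfn8, long Schlafens with a helicase-like domain, were low. Slfn5 had 4.94, 5.72 and 5.10 CPM in HDAC1-cKO and 4.16, 5.83 and 5.77 CPM in WT, a log2 fold change of 0.00 with a 95% interval from -0.54 to 0.54. For Slfn8 the values were 16.6, 15.8 and 12.7 CPM in HDAC1-cKO and 11.8, 12.8 and 16.7 CPM in WT, with an interval of the log2 fold change from -0.33 to 0.59. Both pairs of groups overlapped throughout. Slfn5 shares 8.84% of its exon bases with the antisense gene Slfn5os, whose reads cannot be told apart without strand, and 14.6% of the 50-base stretches of Slfn8 occur in other genes, mostly the pseudogene Slfn10-ps. All 4 genes lie in one cluster on chromosome 11, where Slfn2 starts at 83065112 and Slfn1 at 83116849 on the plus strand (GRCm38).

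**Figure D3:**
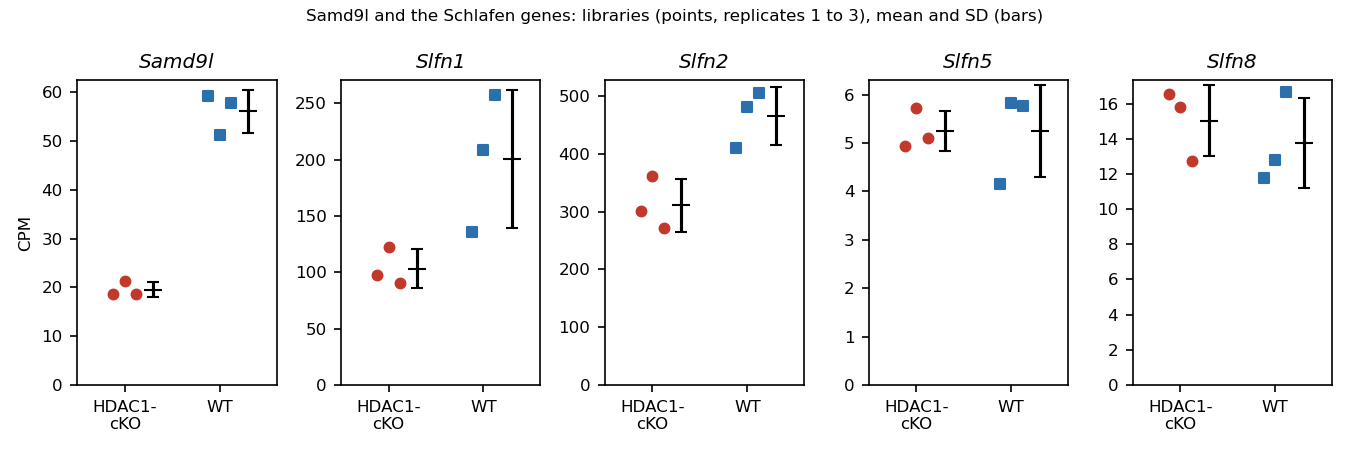
CPM of Samd9l and the 4 Schlafen genes, HDAC1-cKO as red circles left and WT as blue squares right, 1 point per library, with mean and SD (n = 3) as black bars beside them. Samd9l (means of 19.6 and 56.1 CPM) has groups far apart; the genotypes overlap for Slfn5 and Slfn8.

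Promoter windows are shown for the genes with the lowest p, to set their letters beside the ISRE, and for Isg15, which was chosen after its motifs were seen as an example of a window with the element. RefSeq sequences (GRCm38.p6), from 250 bases before to 50 bases from each start site on, were at hand for 27 of the 33 genes in 34 windows of 300 bases. Dhx58, Zbp1, Usp18, Mx1, Ifi27l2a and Rtp4 are named only. Capitals mark matches on either strand to the ISRE core (GAAA, then NN for any 2 bases, then GAAA) or to the gamma-activated site (GAS) of interferon gamma targets (TTC, then NNN for any 3 bases, then GAA), which reads alike on both strands. The windows are Samd9l at chr6:3399522-3399821 on the minus strand, Slfn2 at chr11:83064862-83065161 and Slfn1 at chr11:83116570-83116869 on the plus strand, Irf9 at chr14:55603735-55604034 on the plus strand, Bst2 at chr8:71537423-71537722 on the minus strand and Isg15 at chr4:156200769-156201068 on the minus strand, each written 5′ to 3′ in the direction of the gene. Irf9 has 2 windows, of which the one at the lower coordinate is shown. Its start site lies 414 bases inside the gene as annotated in the count table, so the sequence upstream of that gene start was not searched.
Samd9l: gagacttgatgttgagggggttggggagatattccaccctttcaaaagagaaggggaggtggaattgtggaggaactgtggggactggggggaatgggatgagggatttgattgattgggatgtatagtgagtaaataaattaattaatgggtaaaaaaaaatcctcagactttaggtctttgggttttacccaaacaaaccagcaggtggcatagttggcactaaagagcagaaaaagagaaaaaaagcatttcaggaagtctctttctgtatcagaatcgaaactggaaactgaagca
Slfn2: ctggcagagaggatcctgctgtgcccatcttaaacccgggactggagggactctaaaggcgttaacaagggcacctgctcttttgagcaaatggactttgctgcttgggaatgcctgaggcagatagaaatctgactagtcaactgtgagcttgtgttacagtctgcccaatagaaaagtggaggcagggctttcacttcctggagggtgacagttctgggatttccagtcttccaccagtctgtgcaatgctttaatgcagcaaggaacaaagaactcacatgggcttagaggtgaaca
Slfn1: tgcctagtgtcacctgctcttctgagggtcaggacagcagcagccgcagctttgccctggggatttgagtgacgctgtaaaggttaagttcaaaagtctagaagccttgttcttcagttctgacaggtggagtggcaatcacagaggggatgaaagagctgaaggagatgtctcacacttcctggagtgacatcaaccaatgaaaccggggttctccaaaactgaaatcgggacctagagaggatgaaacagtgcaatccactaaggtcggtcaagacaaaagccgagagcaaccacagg
Irf9: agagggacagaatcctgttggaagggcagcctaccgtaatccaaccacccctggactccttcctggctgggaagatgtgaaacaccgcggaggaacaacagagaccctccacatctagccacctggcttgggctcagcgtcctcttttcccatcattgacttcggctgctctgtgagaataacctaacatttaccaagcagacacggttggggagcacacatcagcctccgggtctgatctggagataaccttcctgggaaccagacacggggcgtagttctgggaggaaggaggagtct
Bst2: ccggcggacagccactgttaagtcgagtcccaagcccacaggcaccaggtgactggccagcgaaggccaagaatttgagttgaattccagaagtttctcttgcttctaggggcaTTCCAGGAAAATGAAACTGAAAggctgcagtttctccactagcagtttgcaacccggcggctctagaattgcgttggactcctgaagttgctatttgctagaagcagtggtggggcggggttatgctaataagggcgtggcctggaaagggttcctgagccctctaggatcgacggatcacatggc
Isg15: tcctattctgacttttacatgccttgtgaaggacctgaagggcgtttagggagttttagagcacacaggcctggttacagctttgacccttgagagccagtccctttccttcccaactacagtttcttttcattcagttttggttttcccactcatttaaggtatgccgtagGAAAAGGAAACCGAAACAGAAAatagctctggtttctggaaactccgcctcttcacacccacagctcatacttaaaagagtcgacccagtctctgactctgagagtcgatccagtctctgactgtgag

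The Samd9l, Slfn2, Slfn1 and Irf9 windows hold no match to either motif, which says only that these letters are not in these windows. This is not particular to them: the windows of Irf7, Oasl1, Oasl2, Xaf1 and Ifi44 hold none either, and 11 of the 27 genes had no ISRE core. Bst2 holds ISRE cores that begin 130 and 124 bases before its start site and overlap a GAS match at 136 bases, and Isg15 holds a tandem of 3 that begin 78, 72 and 66 bases before it. Across the set, 18 of 34 windows (52.9%) held the ISRE core, against 1131 of 32851 windows (3.44%) of all genes; by gene these were 16 of 27 and 3.99%. GAS matches stood in 4 of 34 windows (11.8%) and in 8.3% of all windows. The 2 motifs overlapped in 1 window of the set and in 24 of all windows, and windows of 1 gene can share a site. The set was assembled from known interferon response genes, so a high share of ISRE cores belongs to how it was chosen.

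**Figure D4:**
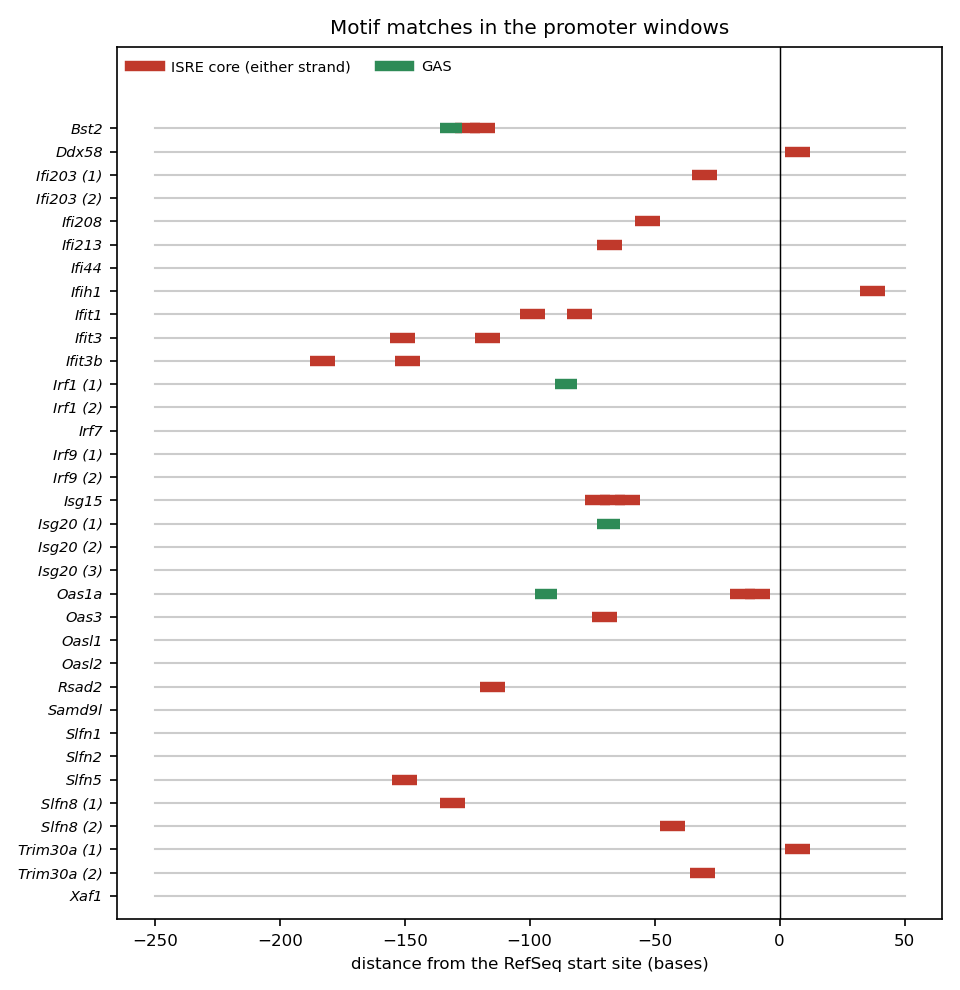
Matches to the ISRE core (red) and GAS (green) in the 34 promoter windows, placed by distance in bases from the RefSeq start site (vertical line); a number in brackets tells apart several windows of 1 gene. Most matches lie upstream of the start site, and those of Ddx58, Ifih1 and 1 Trim30a window lie past it. The windows of Samd9l, Slfn1, Slfn2, Irf9, Irf7, Oasl1, Oasl2, Xaf1 and Ifi44 hold none.

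Among the transcription factors, Irf9 was lower in every HDAC1-cKO library, and Irf1 and Irf7 overlapped between genotypes. Irf9, the ISGF3 subunit, had 96.5, 91.6 and 87.0 CPM in HDAC1-cKO, against 114.5, 117 and 146 CPM in WT. The groups did not overlap, and the log2 fold change was -0.46 ± 0.13 (SE, edgeR adjusted p = 0.117; DESeq2 adjusted p = 0.0258). Irf1, an early factor downstream of interferons and the T cell receptor, had 87.0, 131 and 101 CPM in HDAC1-cKO and 120, 132 and 146 CPM in WT (log2 fold change -0.32 ± 0.16, SE, edgeR adjusted p = 0.389). Without HDAC1-cKO replicate 2 the log2 fold change of Irf1 was -0.50 (edgeR adjusted p = 0.0669). Irf7, the factor that amplifies interferon alpha production, had 75.5, 106.5 and 59.6 CPM in HDAC1-cKO and 72.2, 76.4 and 119 CPM in WT. Its 95% interval, from -0.74 to 0.45 on the log2 scale, spans 0. From its lowest to its highest library Irf7 varied 1.785-fold in HDAC1-cKO and 1.65-fold in WT.

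The sensors of foreign nucleic acid had fold changes of both signs, and 0 of 4 passed the threshold. Ifih1 (MDA5), which binds long double-stranded RNA, had 116, 54.5 and 102 CPM in HDAC1-cKO, against 69.7, 59.1 and 56.5 CPM in WT. HDAC1-cKO replicates 1 and 3 lay above all WT libraries and replicate 2 below them. The log2 fold change was 0.56 ± 0.26 (SE, edgeR adjusted p = 0.327). In the fit that left out HDAC1-cKO replicate 2 it was 0.81 (edgeR adjusted p = 0.0228). Zbp1, a sensor of Z-form nucleic acid that can start necroptosis, had 46.5, 66.8 and 67.5 CPM in HDAC1-cKO, against 70.3, 87.5 and 88.1 CPM in WT. These groups did not overlap (log2 fold change -0.44 ± 0.18, SE, edgeR adjusted p = 0.246). Ddx58 (RIG-I), which binds RNA with a 5′ triphosphate, and Dhx58 (LGP2), which tunes both RNA sensors, overlapped between genotypes, with log2 fold changes of -0.06 ± 0.21 and 0.29 ± 0.24 (SE, edgeR adjusted p = 0.928 and 0.604). Both were highest in HDAC1-cKO replicate 2. With that library left out the log2 fold change was -0.25 for Ddx58 and 0.05 for Dhx58.

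The oligoadenylate synthetases make the second messenger that activates RNase L. Of the related Oasl proteins, which bind RNA or its sensors, Oasl1 lacks this synthetase activity. Oas3 had 27.0, 27.1 and 19.8 CPM in HDAC1-cKO, against 29.8, 30.7 and 44.1 CPM in WT, without overlap (log2 fold change -0.50 ± 0.21, SE, edgeR adjusted p = 0.268). Oasl2 had 44.0, 18.2 and 40.3 CPM in HDAC1-cKO and 12.1, 13.9 and 27.7 CPM in WT (log2 fold change 0.93 ± 0.40, SE, edgeR adjusted p = 0.292). Replicate 2 of HDAC1-cKO lay inside the WT range of Oasl2, and replicates 1 and 3 above it. Oas1a ranged from 11.7 to 19.7 CPM in HDAC1-cKO and from 9.21 to 15.5 CPM in WT, and 57.6% of its 50-base stretches occur in the neighbouring copy Oas1g, so the split of reads between them is uncertain. Oasl1, a translational inhibitor of Irf7 in mice, had 1.26, 4.84 and 1.62 CPM in HDAC1-cKO, against 1.35, 1.67 and 1.87 CPM in WT. Only HDAC1-cKO replicate 2 lay above the WT libraries, and the log2 fold change of 0.67 became -0.19 with it left out (edgeR adjusted p = 0.586 and 0.849).

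The IFIT proteins bind foreign 5′ ends of RNA, and their genes were among those that varied most from library to library, up to 8.30-fold within HDAC1-cKO for Ifit3b. Ifit1 had 12.6, 38.3 and 14.8 CPM in HDAC1-cKO, against 12.3, 26.3 and 22.5 CPM in WT. Ifit3 had 3.92, 17.1 and 4.26 CPM in HDAC1-cKO, against 3.45, 8.07 and 4.50 CPM in WT. Ifit3b, its near copy, had 0.889, 7.38 and 2.45 CPM in HDAC1-cKO, against 1.13, 4.67 and 1.53 CPM in WT. In all 3 genes HDAC1-cKO replicate 2 was the highest of the 6 libraries and WT replicate 2 the next, and both genotypes overlapped. Their log2 fold changes of 0.11 ± 0.45, 0.67 ± 0.60 and 0.55 ± 0.78 (SE, edgeR adjusted p from 0.647 to 0.934) became -0.58, -0.39 and -0.58 without that HDAC1-cKO library (edgeR adjusted p from 0.371 to 0.741). Ifit3 and Ifit3b share 51.2% of the 50-base stretches of Ifit3, so how reads were divided between them is uncertain.

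Rsad2 (viperin), which makes a chain-terminating nucleotide, was likewise highest in HDAC1-cKO replicate 2 and next in WT replicate 2, with 0.797, 5.54 and 0.882 CPM in HDAC1-cKO and 1.27, 3.38 and 0.553 CPM in WT. For Usp18, the protease that removes ISG15 from proteins and shuts off the receptor, HDAC1-cKO libraries gave 22.8, 72.5 and 27.5 CPM and WT libraries 19.96, 27.5 and 31.3 CPM. The gene of its substrate, Isg15, a ubiquitin-like modifier, had 5.83, 14.2 and 6.32 CPM in HDAC1-cKO and 8.74, 8.21 and 11.0 CPM in WT. All 3 genes were highest in HDAC1-cKO replicate 2, while the other HDAC1-cKO libraries lay below all WT libraries for Isg15. Log2 fold changes were 0.48 ± 0.87, 0.65 ± 0.42 and -0.08 ± 0.36 (SE, edgeR adjusted p = 0.846, 0.501 and 0.944). With that library left out they were -1.06, -0.07 and -0.63 (edgeR adjusted p = 0.505, 0.909 and 0.167).

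The PYHIN genes on chromosome 1, whose proteins sense DNA or regulate transcription, had negative fold changes with wide intervals. Ifi203 had 137, 58.9 and 109 CPM in HDAC1-cKO, against 120, 136 and 149 CPM in WT (log2 fold change -0.41 ± 0.27, SE, edgeR adjusted p = 0.51). Here HDAC1-cKO replicate 2 was the lowest library, opposite to its place for the IFIT genes, and with it left out the log2 fold change was -0.14. Ifi208 had 5.06, 16.6 and 6.96 CPM in HDAC1-cKO, against 7.49, 13.8 and 15.4 CPM in WT. HDAC1-cKO replicate 2 was the highest library and the other HDAC1-cKO libraries lay below all of WT. Its log2 fold change was -0.35 with that library and -1.04 with it left out (edgeR adjusted p = 0.772 and 0.153). Ifi213 ranged from 5.78 to 10.7 CPM in HDAC1-cKO and from 6.71 to 11.8 CPM in WT, and its log2 fold change of -0.35 became -0.70 in the same way. Ifi208 and Ifi213 are related copies, with 18.1% of the 50-base stretches of Ifi208 found in Ifi213.

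Among the other effectors, Mx1 and Bst2 were higher in every HDAC1-cKO library. Mx1, a dynamin-like GTPase that blocks influenza virus and is defective in many laboratory mouse strains, had 3.80, 4.98 and 5.19 CPM in HDAC1-cKO, against 0.624, 2.62 and 1.79 CPM in WT. The groups did not overlap at this low level, and the log2 fold change was 1.47 ± 0.48 (SE, edgeR adjusted p = 0.165; DESeq2 adjusted p = 0.0456). Bst2 (tetherin), which holds budding virions at the membrane, had 91.5, 99.2 and 92.6 CPM in HDAC1-cKO, against 76.8, 66.1 and 81.0 CPM in WT. This difference was small but apart: the log2 fold change was 0.34 ± 0.12 (SE, edgeR adjusted p = 0.193). Bst2 is also 1 of 9 listed markers of plasmacytoid dendritic cells, of which 4 were tested and 0 called. On that list Cox6a2 and Cd300c were at 0 and Siglech at 0 to 0.092 CPM, while Irf8 had 27.1 to 35.1 CPM in HDAC1-cKO and 31.8 to 38.01 CPM in WT, Tcf4 had 0.686 to 2.67 CPM in HDAC1-cKO and 1.91 to 2.92 CPM in WT, and Ly6d had 2.67 to 16.2 CPM in HDAC1-cKO and 1.01 to 10.1 CPM in WT. The part of such cells in the Bst2 value was not tested.

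Isg20, an exonuclease, had 29.4, 75.2 and 39.0 CPM in HDAC1-cKO and 59.9, 56.3 and 68.6 CPM in WT. HDAC1-cKO replicates 1 and 3 lay below all WT libraries and replicate 2 above them. The log2 fold change was -0.36 ± 0.31 (SE, edgeR adjusted p = 0.631), or -0.86 without that library (edgeR adjusted p = 0.0385). Ifi27l2a, a small membrane protein gene, was the most abundant of the set per length, at 624 ± 333 FPKM in HDAC1-cKO and 678 ± 246 FPKM in WT (SD, n = 3). Its counts gave 164, 468 and 248 CPM in HDAC1-cKO, against 199, 328 and 425 CPM in WT. The log2 fold change was -0.11 ± 0.39 (SE, edgeR adjusted p = 0.927), or -0.63 without HDAC1-cKO replicate 2 (edgeR adjusted p = 0.326). The next genes in FPKM were Slfn2, Bst2 and Slfn1, and the lowest was Rsad2, at 0.626 ± 0.705 FPKM in HDAC1-cKO and 0.453 ± 0.385 FPKM in WT (SD, n = 3). Mean ± SD did not overlap between Ifi27l2a and Slfn2 in either genotype, while those of Irf1, Irf7, Irf9, Isg20, Rtp4 and Zbp1, with means of 27.5 to 33.2 FPKM in HDAC1-cKO and 35.9 to 40.1 FPKM in WT, all overlapped. Trim30a, Rtp4 and Xaf1, a ubiquitin ligase, a receptor chaperone and a regulator of apoptosis, overlapped between genotypes, with log2 fold changes from -0.17 to -0.06 (edgeR adjusted p from 0.781 to 0.918). Ifi44 had 29 reads in HDAC1-cKO replicate 3 and 0 in the other 5 libraries, so it was not tested.

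**Figure D5:**
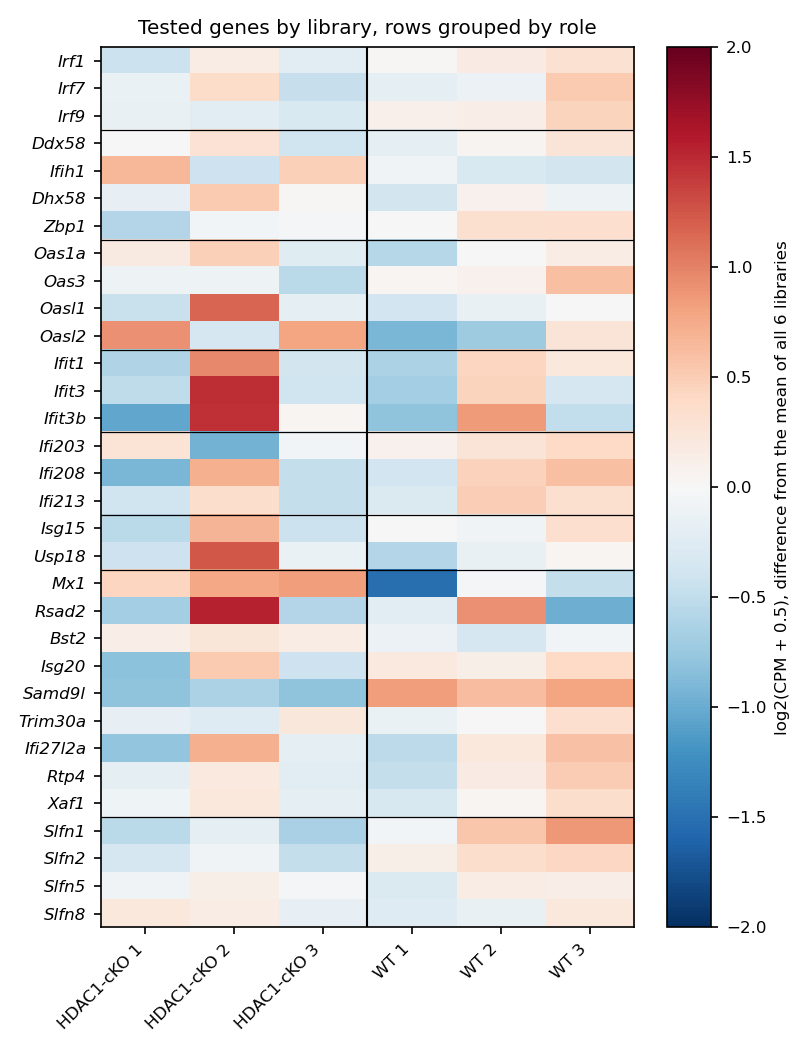
Log2(CPM + 0.5) of each tested gene as the difference from its mean over all 6 libraries, HDAC1-cKO columns left and WT columns right, with rows grouped by role; red is higher and blue lower than the gene's mean. HDAC1-cKO replicate 2 is red for the IFIT genes, Usp18 and Rsad2 and blue for Ifih1 and Ifi203, and the Samd9l row is blue in all 3 HDAC1-cKO and red in all 3 WT libraries.

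Much of the set was high or low by library within each genotype. HDAC1-cKO replicate 2 was the highest library for 14 of 32 genes (43.8%) and WT replicate 3 for 12 (37.5%), while among all tested genes they were highest for 26.1% and 14.2%. WT replicate 1 was the lowest library for 11 of 32 genes (34.4%), and for 13.8% of all. The median deviation of the 32 genes from their mean over libraries was -0.26, 0.27 and -0.21 log2 units in the HDAC1-cKO libraries (replicates 1 to 3), against -0.25, 0.12 and 0.31 in the WT libraries; over all tested genes it lay between -0.0002 and 0.0145 in every library. Each genotype thus held libraries above and below the mean. Without HDAC1-cKO replicate 2 the median log2 fold change of the set was -0.40, with 1 gene called higher (Ifih1) and 3 lower (Samd9l, Slfn2 and Isg20), against a background of 1.6% higher and 2.28% lower in that fit. The median was 0.07 without WT replicate 3 and -0.21 without WT replicate 1.

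Marker sums of other cell types also varied from library to library. The summed CPM of 7 B cell markers was 35.9, 72.5 and 40.03 in the HDAC1-cKO libraries (replicates 1 to 3), against 21.45, 44.99 and 36.2 in the WT libraries. HDAC1-cKO replicate 2 was highest and WT replicate 1 lowest. WT replicate 3 lay near HDAC1-cKO replicate 1 and below HDAC1-cKO replicate 3. Of 7 markers 0 were at 0 in all libraries and 0 passed the test. Cd79b was higher in every HDAC1-cKO library, at 18.8, 25.9 and 18.6 CPM against 10.5, 12.4 and 8.69 CPM in WT (edgeR adjusted p = 0.0592). The other B cell markers overlapped between genotypes. The 2 CD8 T cell markers summed to 65.7 to 72.3 CPM in HDAC1-cKO and 45.4 to 59.4 CPM in WT, with 0 called. Cd8b1 carried these sums and did not overlap (edgeR adjusted p = 0.127), while Cd8a overlapped. The dendritic cell list of 10 genes, with Flt3, Clec9a and Cd209a at 0 in all libraries and 0 called, summed to 148 to 375 CPM in HDAC1-cKO and 88.7 to 290 CPM in WT. Its largest member was Cd74, an antigen presentation gene, with 93.0, 249.8 and 126 CPM in HDAC1-cKO and 43.8, 174 and 140 CPM in WT. H2-Ab1, which B cells express too, was also highest in HDAC1-cKO replicate 2. H2-Aa was highest in WT replicate 2, at 35.15 CPM, against 27.99 CPM in HDAC1-cKO replicate 2. Of the dendritic cell list, Xcr1, Batf3, Zbtb46 and Itgax were lowest in HDAC1-cKO replicate 2. Zbtb46 and Itgax stayed low, at or under 1.78 CPM in every library. Xcr1 had 4.78, 1.55 and 4.46 CPM in HDAC1-cKO, against 11.3, 10.8 and 9.64 CPM in WT. The 14 genes highest in HDAC1-cKO replicate 2 had a median GC content of 51.5%, against 47.4% for the other 18 and 49.1% for all genes tested. The 2 ranges overlapped, at 43.3% to 57.4% for the 14 and 38.4% to 55.4% for the other 18. With GC offsets the median log2 fold change of the set was -0.03, against -0.07 without them. Beyond such offsets, the part of GC content in the interferon values was not tested, nor was that of B cell transcripts. Sums of the macrophage list, in which Csf1r and Cd14 were at 0, were 34.9 to 176 CPM in HDAC1-cKO and 39.3 to 58.8 CPM in WT, with 0 called. Ly6c2, which T cells can express, carried them. Without that gene the sums were 4.6, 11.05 and 8.87 CPM in HDAC1-cKO, against 5.42, 29.8 and 14.2 CPM in WT. Single genes of this list went both ways. Lyz2 in HDAC1-cKO stood at 21.2% of WT, with overlapping groups (edgeR adjusted p = 0.206). Cd68 was higher in every HDAC1-cKO library, at 2.48, 6.21 and 5.24 CPM against 2.01, 2.20 and 2.11 CPM in WT (edgeR adjusted p = 0.153). Sums of the neutrophil list stayed at or under 0.382 CPM.

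The rest of the interferon pathway was read from 107 further genes in 4 lists, of which 104 were found, 82 were tested, 0 were called higher and 2 were called lower, beside 0.979% and 0.992% of all tested genes. None of the 18 listed type I interferon genes was tested; 17 had 0 reads in every library, and Ifnz had 1, 4 and 1 reads in HDAC1-cKO and 3, 3 and 0 in WT. A count of 0 limits each library to under 3 reads of such a gene by counting error. The receptor genes were expressed, with Ifnar1 at 32.6, 41.9 and 29.4 CPM in HDAC1-cKO, against 42.05, 40.7 and 48.6 CPM in WT. Ifnar2 had 19.96, 40.2 and 15.4 CPM in HDAC1-cKO, against 16.4, 21.9 and 26.5 CPM in WT; these 2 were chosen after their values were seen. Both overlapped between genotypes.

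Among 14 receptor, kinase, STAT and inhibitor genes, 1 fell and 0 rose (0.992% and 0.979% of all tested genes), with a list median of -0.20. Jak1, the kinase shared by all interferon receptors, fell to 183, 185 and 186 CPM in HDAC1-cKO, against 268, 257 and 248 CPM in WT. Its libraries were tight and apart, and the log2 fold change was -0.48 ± 0.09 (SE, edgeR adjusted p = 0.0435). Of the 6 fits that left out 1 library, the call held where HDAC1-cKO replicate 2 was left out and was lost in the other 5, with edgeR adjusted p up to 0.1655. Of 19 tested genes of nucleic acid sensing upstream of interferon, 0 passed (1.97% of all tested genes), with a median of -0.19. The lowest p belonged to Traf3, an adaptor of several sensors, with a log2 fold change of -0.63 ± 0.17, and Samhd1, a nucleotide hydrolase that limits retroviruses, with -0.67 ± 0.23 (SE, edgeR adjusted p = 0.11 and 0.187).

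Interferon-stimulated genes outside the set had more negative than positive fold changes. Of 49 tested, 1 fell and 0 rose, 32 had negative fold changes and the median was -0.29. In 15 of the 49 (30.6%) the HDAC1-cKO libraries lay below all WT libraries, where 11.8% of all tested genes did. Phf11b, a PHD finger gene, fell to 142, 102 and 148 CPM in HDAC1-cKO, against 217, 260 and 291 CPM in WT (log2 fold change -0.97 ± 0.17, SE, edgeR adjusted p = 0.0367; up to 0.148 without 1 library). Ifitm2, which blocks virus entry at endosomes, had 81.5, 83.5 and 93.4 CPM in HDAC1-cKO, against 264, 155 and 143 CPM in WT (log2 fold change -1.12 ± 0.23, SE, edgeR adjusted p = 0.0531). These groups did not overlap, with WT replicate 1 the highest by far. The list was put together with earlier results of these data known.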

How the data were processed

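Polyadenylated RNA of 500 sorted cells per library was amplified by Smart-seq2, tagmented with a kit that does not mark strand, and read as 50-base single reads, per the labels' protocols. The authors deposited whole-number counts per gene, not normalized, and FPKM values, for 55536 genes and 6 libraries. The submitters' processing notes name R 3.6.1, DESeq2 1.24.0, STAR 2.5.2b and Picard 2.19.2 without a role, and the builds GRCm38/mm10 and GRCh38/hg38. For the read counter, its strand setting and multi-mapped reads, nothing is stated in the sources used here. Coordinates of 55450 genes equal those of GENCODE M21 (GRCm38). The deposited FPKM were used to order genes per length.

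Groups came from the titles. Genes were filtered by filterByExpr, scaled by TMM and tested with edgeR 4.0.16 in R 4.3.3 (quasi-likelihood, robust, two-sided), with Benjamini-Hochberg adjustment over 15519 genes and a threshold of 0.05. CPM use TMM-scaled totals, and standard errors come from the fold change and its F statistic. The smallest total was 19956153 counts; reads carry no molecular identifiers, so limits cover counting error alone. Replicates are separate pools of 2 mice per the series text. Every replicate pair differed by more than counting noise, with a chi-square of at least 12.04 for each degree of freedom. The test was checked on simulated counts with 200 changed genes. Alternatives were other scaling, filters, DESeq2 1.42.0, limma 3.58.1 (voom with sample weights, and log2(FPKM + 1) and log2(FPKM + 0.1)), thinned counts, a replicate block, GC offsets and leaving out each library. GC content is that of the longest GENCODE transcript. Shared 50-base stretches were counted over all GENCODE transcripts on either strand. Genes named are all members, Hdac1, and in each pathway list up to 4 called genes, or the 2 of lowest p where fewer than 2 were called; 1 gene that this rule names is not reported here. Members, lists and alternatives were chosen with earlier results of these data known. Figures were drawn with matplotlib 3.10.9.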

Additional observations from a re-analysis of the deposited data

How the results depend on the processing

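The fits gave different counts of calls. Over all genes, 152 higher and 154 lower calls became 698 and 665 with DESeq2, 770 and 819 with limma-voom and sample weights, 242 and 251 with GC offsets, and 243 lower with no low-count filter. Leaving out 1 library gave 15 to 258 higher and 10 to 368 lower. Interferon response genes called lower (1 in the edgeR fit) numbered 2 with no low-count filter, 2 with a 10 CPM filter, 4 with DESeq2, 6 with limma-voom, 2 with GC offsets and 1 to 3 without 1 library; those called higher (0) numbered 1 with DESeq2, 2 with limma-voom and 0 to 1 without 1 library. Samd9l passed in 17 of 18 alternatives; with GC offsets and a replicate block together its log2 fold change was -1.30 (adjusted p = 0.0587), and 0 of the set were called lower. Other pathway genes called lower (2) numbered 4 with no filter, 6 with the 10 CPM filter, 19 with DESeq2, 23 with limma-voom, 4 on log2(FPKM + 0.1), 4 on thinned counts, 5 with GC offsets and 0 to 8 without 1 library. The set's median log2 fold change ran from -0.401 to 0.068 without 1 library.

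Over all tested genes, same-numbered deviations correlated at 0.0238, -0.00161 and -0.0422. These values cannot decide whether replicate numbers pair the samples for the interferon response genes, which was not tested. With a replicate block the SE of Ifit1, Ifit3 and Ifit3b was 0.25, 0.30 and 0.35, against 0.45, 0.60 and 0.78 without it. For Bst2 and Ddx58 the SE was larger with the block. A replicate block gave 34 genes higher and 31 lower, with 0 other pathway genes lower and Samd9l still called (adjusted p = 0.024).

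Of 695 fold changes of named genes under the alternatives, 616 kept direction and side of the threshold, 29 newly passed, 14 no longer passed and 36 changed sign. Sign changes outside the fits without 1 library were those of Slfn5 (-0.0028 with DESeq2 size factors, -0.0198 with no filter, -0.00175 with DESeq2, -0.0855 with limma-voom, -0.175 on thinned counts), Ifit1 (-0.481 with limma-voom, -0.00083 and -0.00917 on log2 FPKM), Oasl1 (-0.0449), Ifit3 (-0.205), Ifit3b (-0.280) and Rsad2 (-0.434) with limma-voom, and Trim30a (0.0306 and 0.0352 with GC offsets, without and with the block). Without 1 library the log2 fold change ran from -0.4076 to 0.1115 for Irf7, -0.2508 to 0.09919 for Ddx58, -0.1927 to 0.9972 for Oasl1, -0.5783 to 0.3872 for Ifit1, -0.3945 to 1.08 for Ifit3, -0.5815 to 1.423 for Ifit3b, -0.6263 to 0.1444 for Isg15, -0.07074 to 0.9317 for Usp18, -1.06 to 1.392 for Rsad2, -0.2931 to 0.007501 for Trim30a, -0.6314 to 0.1718 for Ifi27l2a, -0.4114 to 0.06686 for Rtp4, -0.2269 to 0.1166 for Xaf1 and -0.1525 to 0.07164 for Slfn5. The cause of these changes was not tested. With 3 libraries a group, the 95% intervals of low genes such as Rsad2 span several-fold changes in both directions, so a difference of that size was not detectable there.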
